A study of Homo sapiens with 208 samples.

Results

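The early response of PC9GRM2 cells to EGF was described on 10 arrays, 5 with EGF and 5 untreated, at 0.5, 1, 2, 3 and 4 h. The whole series holds 26 arrays in each of 8 courses, of 2 lines and 4 treatments. They were the arrays whose labels give this line, EGF alone or no treatment, and one of these times. PC9GRM2, called PC9M2 in the study, is a gefitinib-resistant human lung adenocarcinoma line that was selected from PC9 cells, which carry an activating deletion in EGFR, by culture in a low amount of gefitinib. All cells had been starved for 48 h. EGF was added at 0 h to 100 ng/ml, and the untreated cells were followed over the same hours without it. Each line, treatment and time had 1 array, so that an EGF array was compared with the untreated array of the same time, and times took the place of replicates. The p-values therefore measure the spread between time points, which holds the course of the response as well as measurement error. The 2 arrays at 0 h served as a baseline. For comparison, 10 arrays of PC9 at the same times (EGF or no treatment), 40 arrays of PC9GRM2 at 5 to 24 h (the same treatments) and 10 arrays of PC9GRM2 under 0.5 μM gefitinib from -2 h, with or without EGF, were used.

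EGF binds the receptor EGFR, which dimerizes with itself or with other ERBB receptors and activates the kinases ERK and AKT. ERK phosphorylates ETS-family partners of serum response factor (SRF), and this switches on immediate-early genes such as EGR1 and FOS without new protein synthesis. Delayed genes follow, among them phosphatases and adaptors that damp ERK (DUSP, SPRY and SPRED proteins), AP-1 subunits such as FOSL1, and further EGFR ligands. AKT keeps FOXO transcription factors out of the nucleus, so that their targets, several of which favour cell death or arrest, are held low while growth factor signals run.

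The promoters of 4 genes described below are shown, those of an immediate-early factor, the factor that binds such promoters, and a pair of EGFR ligands. They are RefSeq sequence of GRCh38.p14, the 250 bases that end before the annotated start, read 5′ to 3′ along the gene. Capitals mark matches to the motifs searched.

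EGR1, chr5:138465229-138465478, plus strand: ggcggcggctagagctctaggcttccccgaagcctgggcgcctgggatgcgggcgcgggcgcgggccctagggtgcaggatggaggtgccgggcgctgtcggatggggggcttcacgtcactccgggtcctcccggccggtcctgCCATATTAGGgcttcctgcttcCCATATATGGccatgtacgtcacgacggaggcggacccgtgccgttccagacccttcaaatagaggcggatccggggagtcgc
SRF, chr6:43171019-43171268, plus strand: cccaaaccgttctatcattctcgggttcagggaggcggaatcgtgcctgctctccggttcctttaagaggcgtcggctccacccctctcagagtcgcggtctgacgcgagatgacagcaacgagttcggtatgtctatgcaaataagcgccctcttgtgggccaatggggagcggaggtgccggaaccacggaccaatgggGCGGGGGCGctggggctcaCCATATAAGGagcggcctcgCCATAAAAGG
AREG, chr4:74444886-74445135, plus strand: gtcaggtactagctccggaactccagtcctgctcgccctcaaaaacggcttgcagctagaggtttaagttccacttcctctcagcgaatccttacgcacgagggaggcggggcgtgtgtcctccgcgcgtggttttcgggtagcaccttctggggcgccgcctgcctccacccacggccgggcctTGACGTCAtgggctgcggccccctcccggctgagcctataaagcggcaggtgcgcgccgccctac
HBEGF, chr5:140346604-140346853, minus strand: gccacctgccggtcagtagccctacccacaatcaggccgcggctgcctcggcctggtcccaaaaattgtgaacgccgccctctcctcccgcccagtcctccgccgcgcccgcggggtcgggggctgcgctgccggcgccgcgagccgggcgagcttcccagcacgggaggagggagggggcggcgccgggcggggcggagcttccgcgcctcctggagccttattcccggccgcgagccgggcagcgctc

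In EGR1 the capitals were 2 CArG boxes, the element bound by SRF, at -105 to -96 and -83 to -74 from the start. In SRF they were 2 CArG boxes, at -30 to -21 and -10 to -1, and an EGR site at -49 to -41. In AREG they were a cyclic AMP response element (CRE) at -65 to -58. The HBEGF stretch held no match, which says only that these letters are not in it. The examples are not typical, as EGR1 and SRF alone of 22 immediate-early genes with a promoter held a CArG box.

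On the 10 arrays, 28742 to 31901 of the 45015 features were well above background and 0 were saturated. Signals were quantile normalized over all arrays of the series and put on the log2 scale, on which a difference of 1 is a doubling. Genes were tested if 2 or more of the 5 arrays of either side showed the probe well above background, which left 12929 of 16961 named genes. A gene was called where limma's moderated test gave a Benjamini-Hochberg adjusted p under 0.05 over all tested genes. Of 11 lung epithelial markers, 9 were well above background on all 10 arrays, EPCAM, CDH1 and the keratins among them. Of 7 fibroblast markers with a probe, THY1 alone was so and the other 6 were on no array. The 2 arrays of a time lay on 1 slide, always in the same positions, so that position and treatment cannot be told apart.

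The array labelled EGF at 0.5 h went against its label, and so did the array labelled EGF and gefitinib at 0.5 h. DUSP6, the ERK phosphatase, stood at a log2 level of 7.75 on the array labelled EGF at 0.5 h, against 11.98 to 13.87 on the EGF arrays of all other times. On the array labelled EGF and gefitinib at 0.5 h DUSP6 stood at 12.53, against 7.51 to 11.52 at the other times of that treatment. The untreated array of 0.5 h stood at 13.05 and the gefitinib array at 7.85. Of the genes that were high under gefitinib at the other times, BMF stood at 10.79 on the array labelled EGF (4.45 to 8.75 at other times) and TNFSF10 at 8.53 (4.36 to 6.53). Over the tested genes, the array labelled EGF at 0.5 h lay at a root mean square distance of 0.31 from the mean of the 0 and 1 h arrays with EGF and gefitinib, and of 0.45 from that with EGF alone. For the array labelled EGF and gefitinib these distances were 0.47 and 0.29. Both arrays were kept under their labels, the cause was not tested, and the counts of calls below are given with and without the 0.5 h pair.

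**Figure D1:**
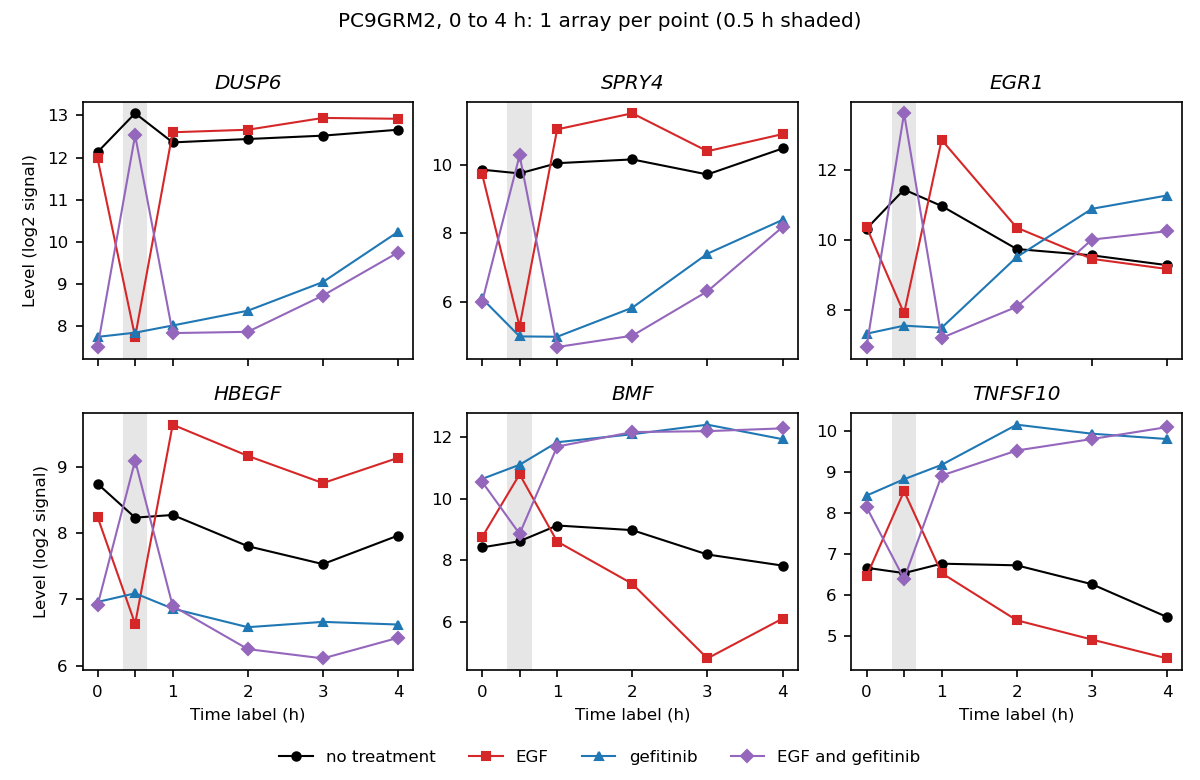
Log2 levels (y axis) of 6 genes in PC9GRM2 at the time labels 0 to 4 h (x axis, in hours), with 1 array per point and 1 line per treatment; 0.5 h is shaded. At 0.5 h the array labelled EGF lies with the gefitinib arrays and the array labelled EGF and gefitinib with the untreated and EGF arrays, while from 1 h on HBEGF is highest and BMF lowest with EGF alone.

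At 0 h DUSP6 differed by -0.14, EGR1 by 0.05 and EGR3 by -0.16 (log2, EGF minus no treatment), HBEGF by -0.50, SRF by -0.53 and MYC by 0.44. Over the tested genes the differences had an SD of 0.36 at 0 h and of 0.45, 0.39, 0.60, 0.37 and 0.43 at 0.5, 1, 2, 3 and 4 h. The 2 h pair had the widest spread, with 595 genes at least 2-fold higher and 553 at least 2-fold lower with EGF, against 141 to 207 higher and 129 to 260 lower at the other 4 times. Calls that were lost without it are named below.

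Over the 5 pairs as labelled, 0 of 12929 genes were called (0% of tested genes, limma), with 874 at an unadjusted p under 0.05. Without the 0.5 h pair, 0 were called again, with 1576 at an unadjusted p under 0.05. These fits take their spread from 5 or 4 pairs alone. Among genes that differed one way at 5 of 5 times, PFKFB3, a regulator of glycolysis, had the largest mean difference at 1.19 ± 0.15 (SE, n = 5 pairs, adjusted p = 0.72 by limma), but its arrays already differed by 1.47 at 0 h. The NF-κB inhibitor TNFAIP3 followed the same rule with a mean of 0.91 ± 0.26 (SE, n = 5 pairs, adjusted p = 0.72 by limma), and SESN2 lay on the lower side at -0.56 ± 0.21 (SE, n = 5 pairs, adjusted p = 0.72 by limma).

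In a fit with a mean for each window of the course, whose spread is shared over all 26 pairs, 161 genes rose (1.25% of those tested) and 106 fell (0.82%) at 2 to 4 h. Without the 0.5 h pair 226 rose (1.75%) and 135 fell (1.04%), and these held all 161 and 106 genes called with it. The mean at 2 to 4 h does not contain the 0.5 h pair. Leaving that pair out therefore kept each mean and changed the shared spread alone, and leaving out the 1 h pair instead gave the same counts. The 2 sets of calls at 2 to 4 h are thus not a check of one another. Most calls were lost without the 2 h pair, when 3 genes rose and 10 fell, and BMF, TP53INP1, KLHL24 and HAS3 were among these 13. The other genes named below as called at 2 to 4 h over all pairs were not called without the 2 h pair. Without the 3 h pair BMF, CD274, HBEGF, DUSP1, TNFSF10, MYC, NR4A1, ERBB3, IL11, YPEL3, DKK1 and TFDP3 were not called (adjusted p 0.0503 to 0.271, limma), and without the 4 h pair CD274, HBEGF, DUSP7, NR4A1, ERBB3, YPEL3, TNFAIP3, LSS, DKK1 and DDX50 were not (0.0598 to 0.183). With 75th percentile scaling MYC, NR4A1, DUSP7, ERBB3, IL11, YPEL3, TNFAIP3, LSS and DKK1 were not called (adjusted p 0.0502 to 0.137, limma). The sizes also depended on the background correction, and differences with normexp, another correction, are given below for genes in which they were smaller by over 1.5 times. With the spread shared over all 26 pairs, a form chosen after the data were seen, the mean of all 5 pairs as labelled was called in 7 genes (0.0541%), PFKFB3 among them. The mean at 1 to 4 h, with the spread shared over 25 pairs, called 181 genes higher (1.4%) and 77 lower (0.596%). Without the 2 h pair as well, 19 rose (0.147%) and 15 fell (0.116%), and 19 and 14 of these had been called with it. HBEGF was the only gene of those tested that was at least 2-fold higher at each of 1, 2, 3 and 4 h, and none was 2-fold lower throughout. At 1.5-fold, 22 genes were higher at each of the 4 times, with HBEGF, EGR3, FOSL1, CSF2, CD274 and SOCS3 among them, and TP53INP1 was lower.

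**Figure D2:**
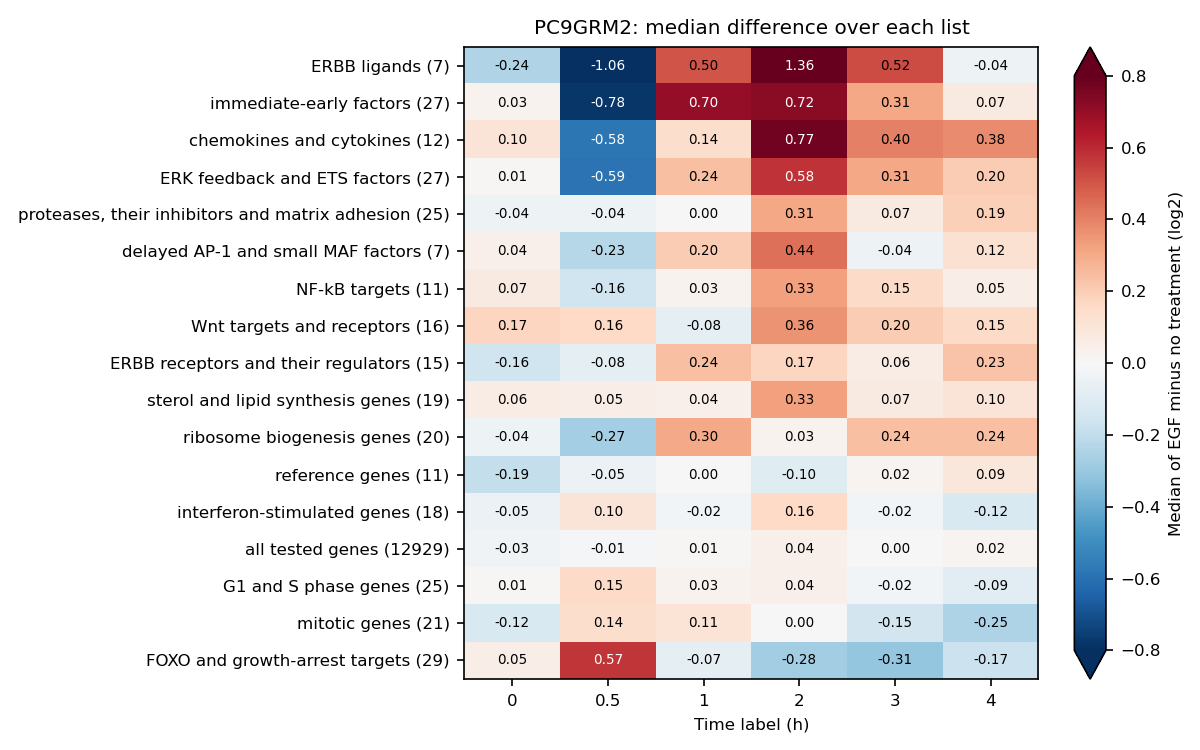
Median difference, EGF minus no treatment (log2, color and number in each cell), over the tested genes of each list (rows, number of genes in brackets) at the time labels 0 to 4 h (columns) in PC9GRM2. ERBB ligands, immediate-early factors and chemokines have medians of 1.36, 0.72 and 0.77 at 2 h and of -1.06, -0.78 and -0.58 at 0.5 h as labelled, and FOXO targets run the other way.

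Of the immediate-early factors, 27 of 29 listed genes were tested. At 1 h, a single pair judged against the spread within the other windows, and without the 0.5 h pair, 17 genes of all rose (0.132%) and 23 fell (0.178%), and 5 of the 27 rose, namely EGR1, EGR3, CCN1, KLF10 and ZFP36. At 2 to 4 h, 4 rose and 0 fell (MYC, SRF, TRIB1 and NR4A1), and 7 rose without the 0.5 h pair. In the fit over 1 to 4 h 9 rose, and 4 did so without the 2 h pair (EGR3, EGR4, MYC and CCN1). Of all tested genes 1.25% rose at 2 to 4 h, and 1.75% without the 0.5 h pair. Over 1 to 4 h 1.4% of all rose, and 0.147% without the 2 h pair. The list's median difference at 2 to 4 h was 0.42, against 0.01 over all tested genes. Of the 27 genes 22 lay above 0, against 6809 of all 12929.

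EGR1, a zinc finger factor that is among the first genes induced by ERK, stood at log2 levels of 10.37, 7.90, 12.86, 10.35, 9.46 and 9.17 on the EGF arrays of 0, 0.5, 1, 2, 3 and 4 h. On the untreated arrays EGR1 stood at 10.32, 11.44, 10.97, 9.74, 9.56 and 9.28. Its EGF array was thus higher at 1 and 2 h, lower at the 0.5 h label, and within 0.11 of the untreated array at 3 and 4 h. The difference at 1 h was 1.89 (adjusted p = 0.0267, limma), and at 2 to 4 h the mean was 0.13 ± 0.50 (SE, n = 3 pairs, adjusted p = 0.952 by limma).

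EGR3, a zinc finger factor related to EGR1, stood at 6.47, 3.30, 9.50, 8.43, 7.09 and 7.31 with EGF at these times and at 6.62, 6.54, 6.89, 6.44, 6.03 and 6.35 without. From 1 h on every EGF array lay above every untreated array, and the array labelled EGF at 0.5 h lay below them all. The difference of EGR3 was 2.61 at 1 h (adjusted p = 0.0018, limma). At 2 to 4 h the mean was 1.33, with an adjusted p of 0.197 as labelled and of 0.00311 without the 0.5 h pair (limma). Over 1 to 4 h it was 3.14-fold higher, and it was called without the 2 h pair too (1.54 ± 0.27, SE, adjusted p = 0.0106 by limma).

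EGR4 differed by 1.77, 1.85, 1.53 and 0.32 at 1, 2, 3 and 4 h and was 2.58-fold higher over these times. CCN1, a secreted matrix protein that SRF and YAP induce, differed by 1.59, 1.33, 0.47 and 0.53. Of the other immediate-early genes, FOS differed by 1.03, 1.43, 0.00 and -0.37 and JUNB by 1.42, 1.98, -0.15 and -0.26, and neither was called in any of these fits. Their differences were thus above 1 at 1 and 2 h and at or below 0 at 3 and 4 h.

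KLF10, a repressor of the Krüppel-like family, differed by 1.53 at 1 h (adjusted p = 0.00397, limma) and by -0.72, -0.07 and -0.08 afterwards. ZFP36, which destabilizes messenger RNAs with AU-rich elements, differed by 0.97, 0.72, 0.09 and -0.07 (adjusted p = 0.024 at 1 h, limma). EDN1, which encodes the peptide endothelin and was on no list, rose at 1 h by 1.58 (adjusted p = 3.2e-05, limma), and FFAR4, a fatty acid receptor, by 1.80 (adjusted p = 2.78e-06, limma). CITED2, a transcriptional coregulator, and ARRDC3, an arrestin-related adaptor, fell at 1 h, with differences of -1.04 (adjusted p = 0.00877, limma) and -1.03 (adjusted p = 0.0494, limma). These 4 genes were chosen after their values were seen, and at 2, 3 and 4 h their differences lay between -0.24 and 0.65.

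MYC, the growth-promoting transcription factor, stood at 5.54, 3.07, 5.40, 6.94, 6.07 and 6.76 with EGF at 0, 0.5, 1, 2, 3 and 4 h and at 5.10, 4.75, 4.49, 5.18, 5.10 and 6.20 without. The EGF array was higher at each time from 1 h on and lower at 0.5 h, while the 2 sets of levels overlapped. MYC rose by 1.09 ± 0.28 at 2 to 4 h (SE, n = 3 pairs, adjusted p = 0.039 by limma, 0.00218 without the 0.5 h pair). Without 0.5 and 2 h its mean was 0.81 ± 0.16 (SE, n = 3 pairs, adjusted p = 0.029 by limma). At 2 to 4 h MYC was not called with normexp or with the probe of highest mean (0.68 with both, adjusted p = 0.136 and 0.151 by limma), nor with 75th percentile scaling (adjusted p = 0.0876), the mean of probes (0.0615) or no filter (0.0559).

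SRF, whose own promoter carries CArG boxes above, was not called at 1 h (0.13) and differed by 1.77, 0.56 and 0.84 at 2, 3 and 4 h. It rose by 1.06 ± 0.22 at 2 to 4 h (SE, n = 3 pairs, adjusted p = 0.0164 by limma). Without 0.5 and 2 h its mean was 0.51 (adjusted p = 0.306 by limma), so that the call rested on the 2 h pair. NR4A1, an orphan nuclear receptor, rose by 0.67 ± 0.18 (SE, n = 3 pairs, adjusted p = 0.0496 by limma), and TRIB1, a pseudokinase that scaffolds protein degradation, by 1.02 ± 0.23 (SE, n = 3 pairs, adjusted p = 0.024 by limma). Without the 2 h pair NR4A1 and TRIB1 had adjusted p of 0.557 and 0.45 (limma), and with normexp SRF and TRIB1 differed by 0.58 and 0.55. With the probe of highest mean these differences were 0.49 and 0.38. KLF2, another Krüppel-like factor, differed by 1.53, 1.03, 0.27 and 0.07 at 1, 2, 3 and 4 h and was not called.

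**Figure D3:**
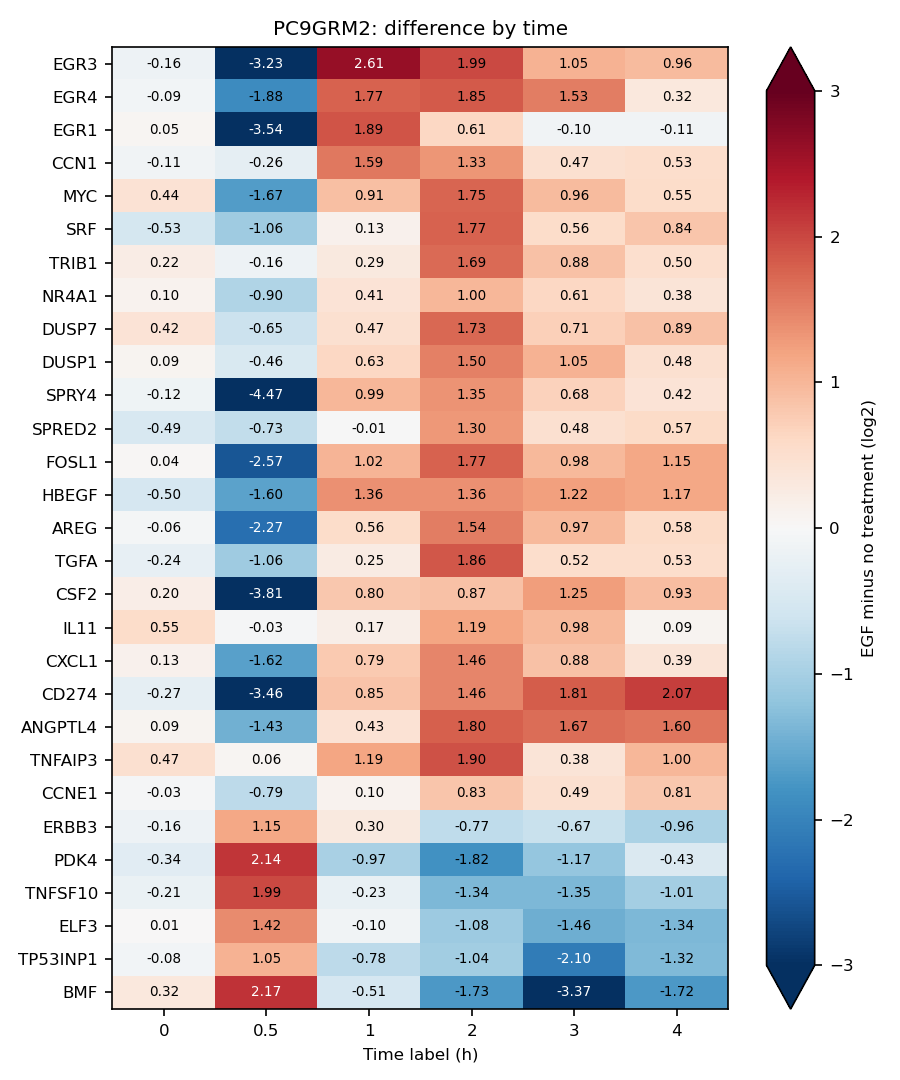
Difference, EGF minus no treatment (log2, color and number in each cell), of 29 genes (rows) at the time labels 0 to 4 h (columns) in PC9GRM2, 1 pair of arrays per cell. EGR1 peaks at 1 h (1.89), HBEGF stays between 1.17 and 1.36 from 1 h on, and BMF reaches -3.37 at 3 h; the 0.5 h column has the opposite sign for nearly every gene shown.

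Of the ERK feedback regulators and ETS factors, 27 were tested, and 4 rose and 1 fell at 2 to 4 h, or 7 and 1 without the 0.5 h pair. Over 1 to 4 h 9 rose and 1 fell, and without the 2 h pair 1 rose (SPRY4) and 0 fell. Of all tested genes 1.25% rose and 0.82% fell at 2 to 4 h, or 1.75% and 1.04% without the 0.5 h pair. Over 1 to 4 h 1.4% of all rose and 0.596% fell, or 0.147% and 0.116% without the 2 h pair. DUSP1, a nuclear phosphatase of MAP kinases, differed by 0.63, 1.50, 1.05 and 0.48 at 1, 2, 3 and 4 h and rose by 1.01 ± 0.21 at 2 to 4 h (SE, n = 3 pairs, adjusted p = 0.0164 by limma). DUSP7, a cytoplasmic ERK phosphatase, rose by 1.11 ± 0.27 (SE, n = 3 pairs, adjusted p = 0.0307 by limma). SPRED2, an inhibitor of RAS signaling, rose by 0.78 ± 0.14 (SE, n = 3 pairs, adjusted p = 0.00576 by limma), with differences of 1.30, 0.48 and 0.57 at 2, 3 and 4 h. The ETS factor ELK3 rose by 0.51 ± 0.12 (SE, n = 3 pairs, adjusted p = 0.0318 by limma). Without the 2 h pair DUSP1, DUSP7 and SPRED2 had adjusted p of 0.322, 0.457 and 0.174 (limma). With normexp their differences were 0.48, 0.30 and 0.39, and with the mean of its probes SPRED2 was not called (adjusted p = 0.245, limma).

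SPRY4, a Sprouty inhibitor of receptor tyrosine kinase signaling, stood at 9.74, 5.27, 11.04, 11.51, 10.40 and 10.90 with EGF and at 9.86, 9.75, 10.05, 10.16, 9.72 and 10.48 without. With the 0.5 h pair it was not called at 2 to 4 h (adjusted p = 0.432, limma) and without it it was (mean 0.82, adjusted p = 0.00909). DUSP6, the phosphatase that tracked the label conflict, differed by 0.24, 0.23, 0.42 and 0.26 from 1 to 4 h (adjusted p = 0.849 at 2 to 4 h as labelled and 0.169 without 0.5 h, limma). Its untreated level in this line was already 12.13 to 13.05. SPRY2, DUSP4, ETV4 and ETV5, targets of the same pathway, had mean differences of 0.26, 0.23, -0.05 and -0.06 at 2 to 4 h and were not called.

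The gene of this list that fell was ELF3, an epithelial ETS factor. It stood at 11.34, 12.69, 11.51, 10.40, 9.52 and 10.45 with EGF and at 11.34, 11.27, 11.60, 11.48, 10.98 and 11.79 without. At 2, 3 and 4 h each EGF array lay below all untreated arrays. The mean difference was -1.29 ± 0.24 (SE, n = 3 pairs, adjusted p = 0.00868 by limma). In the fit without 0.5 and 2 h ELF3 had an adjusted p of 0.0862 (limma, mean -0.97).

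Of 11 genes for ERBB ligands, 7 were tested. At 2 to 4 h 2 rose (HBEGF and TGFA), and 3 with AREG when the 0.5 h pair was left out. Over 1 to 4 h the same 3 genes rose, and without the 2 h pair HBEGF and AREG did. In these fits 1.25%, 1.75%, 1.4% and 0.147% of all tested genes rose, in the order given. HBEGF, which encodes a membrane-bound ligand of EGFR and ERBB4, stood at 8.24, 6.63, 9.63, 9.16, 8.75 and 9.13 with EGF at 0, 0.5, 1, 2, 3 and 4 h and at 8.74, 8.23, 8.27, 7.80, 7.53 and 7.96 without. From 1 h on, each EGF array was above every untreated array, although at 0 h it had been the lower of the pair. HBEGF rose by 1.25 ± 0.30 at 2 to 4 h (SE, n = 3 pairs, adjusted p = 0.0287 by limma, 0.000482 without the 0.5 h pair). Over 1 to 4 h it was 2.42-fold higher (1.28 ± 0.15, SE, adjusted p = 9.53e-05 by limma), and without the 2 h pair it differed by 1.25 ± 0.18 (SE, adjusted p = 0.002 by limma). At 2 to 4 h as labelled HBEGF had an adjusted p of 0.273 without the 2 h pair (limma), and with normexp it differed by 0.79. With the mean of its probes it had an adjusted p of 0.0556 (limma).

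AREG, which encodes the EGFR ligand amphiregulin, stood at 10.93, 8.26, 11.07, 11.61, 10.98 and 10.83 with EGF, and between 10.00 and 10.99 on the untreated arrays of 0 to 4 h. Its paired differences were 0.56, 1.54, 0.97 and 0.58 from 1 to 4 h and -2.27 at the 0.5 h label. The mean at 2 to 4 h was 1.03 ± 0.28 (SE, n = 3 pairs, adjusted p = 0.0566 by limma), or 0.00153 without the 0.5 h pair. TGFA, another EGFR ligand, rose by 0.97 ± 0.22 at 2 to 4 h (SE, n = 3 pairs, adjusted p = 0.0259 by limma), from differences of 1.86, 0.52 and 0.53. Without 0.5 and 2 h its mean was 0.43 (adjusted p = 0.292, limma). EREG differed by 1.50, -0.15, 1.16 and -0.44 at 1, 2, 3 and 4 h, was well above background on 3 of 5 EGF and 2 of 5 untreated arrays, and was not called, and BTC had a mean of -0.06 at 2 to 4 h.

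Of the receptors, EGFR stood at 10.89 to 11.34 on the EGF arrays of 0 to 4 h and at 10.64 to 11.34 on the untreated ones, and the mean at 2 to 4 h was 0.25 ± 0.17 (SE, n = 3 pairs, adjusted p = 0.513 by limma). ERBB2 had a mean of -0.03 ± 0.19 (SE, n = 3 pairs, adjusted p = 0.977 by limma). ERBB3, the kinase-impaired partner of ERBB2, stood at 9.43, 9.15 and 8.97 with EGF at 2, 3 and 4 h and at 10.19, 9.82 and 9.93 without. It fell by 0.80 on the log2 scale (SE 0.21, n = 3 pairs, adjusted p = 0.0458 by limma). This was the only call at 2 to 4 h among the 15 tested receptors and regulators. Of all tested genes 1.25% rose and 0.82% fell at 2 to 4 h, and 1.4% and 0.596% over 1 to 4 h. ERBB3 was not called without the 2 h pair (adjusted p = 0.309, limma) or over 1 to 4 h (0.192), which takes in a difference of 0.30 at 1 h. Over 1 to 4 h SOCS4, an adaptor that promotes EGFR degradation, was the one call of this list, 1.91-fold higher (adjusted p = 0.0474, limma, and 0.138 without the 2 h pair). Its arrays differed by -0.87 at 0 h. ERBB4 was near background and was not tested. ERRFI1, a feedback inhibitor that binds the EGFR kinase, differed by 0.44, 1.00, 0.52 and 0.53 from 1 to 4 h and was called only without the 0.5 h pair (adjusted p = 0.0222 at 2 to 4 h, limma).

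Of 12 tested chemokines and cytokines, 1 rose at 2 to 4 h, IL11 (0.75 ± 0.19, SE, n = 3 pairs, adjusted p = 0.0403 by limma), and 4 without the 0.5 h pair, when CXCL1, CSF2 and LIF were added. Of all tested genes 1.25% rose at 2 to 4 h, and 1.75% without the 0.5 h pair. Without the 2 h pair IL11 had an adjusted p of 0.557 (limma). CSF2, the granulocyte-macrophage growth factor, stood at 7.91, 4.21, 8.74, 8.32, 8.11 and 7.70 with EGF and at 7.71, 8.03, 7.94, 7.45, 6.86 and 6.77 without. It was called without the 2 h pair too (0.99 ± 0.18, SE, n = 3 pairs, adjusted p = 0.0179 by limma). CXCL1, a neutrophil attractant, differed by 0.79, 1.46, 0.88 and 0.39 from 1 to 4 h.

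CD274, which encodes the immune checkpoint ligand PD-L1, stood at 5.80, 2.77, 6.82, 7.55, 8.01 and 7.91 with EGF and at 6.07, 6.23, 5.97, 6.09, 6.20 and 5.84 without. The untreated arrays lay between 5.84 and 6.23, and from 1 h on every EGF array lay above them. CD274 rose by 1.78 ± 0.43 at 2 to 4 h (SE, n = 3 pairs, adjusted p = 0.0317 by limma), and by 1.58 ± 0.27 without 0.5 and 2 h (SE, n = 3 pairs, adjusted p = 0.0106 by limma). ANGPTL4, a secreted inhibitor of lipoprotein lipase, rose by 1.69 ± 0.29 (SE, n = 3 pairs, adjusted p = 0.00522 by limma), with 1.80, 1.67 and 1.60 at 2, 3 and 4 h. At 2 to 4 h as labelled without the 2 h pair, CD274 and ANGPTL4 had adjusted p of 0.175 and 0.0671 (limma). With normexp they differed by 0.73 and 0.42. HAS3, a hyaluronan synthase, was on no list and was chosen after its values were seen. HAS3 differed by -0.86 at 1 h and rose by 1.36 ± 0.17 at 2 to 4 h (SE, n = 3 pairs, adjusted p = 0.000353 by limma). Larger means belonged to TFDP3 (2.46) and DDX50 (2.10), but these were well above background on only 1 and 2 of 5 untreated arrays and came mostly from single pairs, 5.34 at 3 h and 3.96 at 4 h, and with normexp they differed by 0.31 and 0.04.

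FOSL1, the delayed AP-1 subunit, stood at 8.45, 5.74, 9.53, 10.55, 9.42 and 9.57 with EGF and at 8.41, 8.31, 8.51, 8.78, 8.44 and 8.41 without. From 1 h on every EGF array was higher than every untreated array. It had an adjusted p of 0.115 at 2 to 4 h as labelled and of 0.026 without the 0.5 h pair (limma). It was the only 1 of 7 tested delayed AP-1 and small MAF genes that was called. Without the 0.5 h pair 1.75% of all tested genes rose at 2 to 4 h. Of 25 proteases, protease inhibitors and adhesion genes, 0 were called at 2 to 4 h, with a median of 0.21.

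The FOXO and growth-arrest targets ran the other way. Of 29 tested, 4 fell at 2 to 4 h and 0 rose, with 106 of 12929 (0.82%) lower overall. Without the 0.5 h pair 6 fell, and over 1 to 4 h 5 fell and 1 rose, the growth-arrest gene GADD45A (0.57, adjusted p = 0.0491 by limma, and 0.271 without the 2 h pair). Without 0.5 and 2 h 3 fell (BMF, TP53INP1 and PDK4). Of all tested genes 1.04% fell at 2 to 4 h without the 0.5 h pair. Over 1 to 4 h 1.4% of all rose and 0.596% fell, and without 0.5 and 2 h 0.116% fell. The list's median was -0.27 at 2 to 4 h, and 6 of the 29 lay above 0, against 6809 of all 12929.

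BMF, a BH3-only protein that promotes apoptosis, stood at 8.75, 10.79, 8.61, 7.24, 4.82 and 6.11 with EGF and at 8.42, 8.62, 9.13, 8.98, 8.19 and 7.83 without. At 2, 3 and 4 h each EGF array lay below every untreated array, and the array labelled EGF at 0.5 h lay above them. BMF fell by 2.28 on the log2 scale (SE 0.41, n = 3 pairs, adjusted p = 0.00629 by limma), the largest fall of any gene well above background on all 5 untreated arrays, and was 3.57-fold lower over 1 to 4 h. With normexp BMF differed by -0.92 at 2 to 4 h.

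TP53INP1, a stress-induced regulator of autophagy and apoptosis, stood at 8.32, 9.83, 8.15, 7.76, 6.68 and 7.33 with EGF and at 8.40, 8.78, 8.93, 8.80, 8.78 and 8.65 without. Its untreated level hardly moved, and from 1 h on each EGF array was below all untreated arrays. It fell by 1.49 on the log2 scale (SE 0.24, n = 3 pairs, adjusted p = 0.0037 by limma), and by 1.40 without 0.5 and 2 h (adjusted p = 0.002, limma). With normexp TP53INP1 differed by -0.70. TNFSF10, the death ligand TRAIL, fell by 1.23 on the log2 scale (SE 0.27, n = 3 pairs, adjusted p = 0.019 by limma), with differences of -1.34, -1.35 and -1.01. TNFSF10 was not called with normexp (-0.22, adjusted p = 0.237 by limma) or without the 2 h pair (adjusted p = 0.197). YPEL3, a growth suppressor, fell by 0.58 on the log2 scale (SE 0.15, n = 3 pairs, adjusted p = 0.0383 by limma, 0.202 without the 2 h pair).

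PDK4, which restrains pyruvate oxidation, stood at 8.14, 10.31, 6.74, 4.88, 6.00 and 6.16 with EGF and at 8.48, 8.17, 7.70, 6.71, 7.17 and 6.59 without. It was not called as labelled (mean -1.14, adjusted p = 0.0671) and was called without the 0.5 h pair (adjusted p = 0.00403, limma). The same held of BCL6, a transcriptional repressor (mean -0.86, adjusted p = 0.0625 as labelled and 0.035 without the 0.5 h pair, limma). KLHL24, an adaptor of a ubiquitin ligase that was on no list and was chosen after its values were seen, fell by 1.14 on the log2 scale (SE 0.19, n = 3 pairs, adjusted p = 0.00449 by limma).

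Other lists held few calls at 2 to 4 h, when 1.25% of all tested genes rose and 0.82% fell. Without the 0.5 h pair these shares were 1.75% and 1.04%, and over 1 to 4 h 1.4% and 0.596%. Of 25 tested G1 and S phase genes 1 rose, CCNE1, which drives entry into S phase, by 0.71 ± 0.13 (SE, n = 3 pairs, adjusted p = 0.00629 by limma), from 13.73, 14.00 and 13.89 without to 14.56, 14.48 and 14.70 with EGF. Without the 2 h pair CCNE1 had an adjusted p of 0.104 (limma). Among 11 NF-κB targets TNFAIP3 rose by 1.09 ± 0.28 (SE, n = 3 pairs, adjusted p = 0.0388 by limma), with 0.608 without the 2 h pair and a difference of 0.42 with normexp. Over 1 to 4 h 2 of the 11 rose, NFKB1, a subunit of NF-κB, among them (0.31, adjusted p = 0.0377 by limma). Among 19 sterol and lipid synthesis genes LSS was called at 0.50, but it differed by 0.01 with normexp and 0.02 with its probe of highest mean. Of 16 Wnt targets and receptors 2 rose, DKK1 by 0.61 (adjusted p = 0.433 without the 2 h pair, limma) and MYC, which is also on the immediate-early list. AXIN2, a feedback inhibitor of Wnt signaling, had a mean of -0.63 and was called lower without the 0.5 h pair (adjusted p = 0.0438, limma) and over 1 to 4 h (0.039), but not without the 2 h pair as well (0.217). Of 20 ribosome biogenesis genes NOP56 was called higher in these same 2 fits (adjusted p = 0.0268 and 0.0188, limma), but not without the 2 h pair as well (0.212), and 0 were called as labelled. None of the 21 mitotic, 18 interferon-stimulated or 11 reference genes was called in any of these fits. The medians of the mitotic, interferon-stimulated, ribosome biogenesis and reference lists were -0.11, 0.04, 0.11 and 0.06. These medians lay within 0.12 of that of all tested genes (0.01), but the signs of some lists were uneven. Above 0 at 2 to 4 h were 17 of 20 ribosome biogenesis, 17 of 19 sterol and lipid synthesis and 5 of 21 mitotic genes. For interferon-stimulated and reference genes the counts were 10 of 18 and 6 of 11, and over all tested genes 6809 of 12929.

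The 0.5 and 1 h window as labelled gave 16 calls (0.124% of tested genes), 9 higher and 7 lower. The largest rises were CLEC7A (4.04), SLC2A12 (1.62), TGFBR3 (1.43), IRS2 (1.35) and RAD50 (0.95), and IRS2, an insulin receptor substrate, was the only one on the lists, where it is a FOXO target. Since this mean joins the array that went against its label with the 1 h pair, its value for EGF cannot be told apart from the label conflict. The difference between the windows of 0.5 and 1 h and of 2 to 4 h was called in 91 genes (0.704%), and in 25 (0.194%) without the 0.5 h pair.

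Set against the 20 later pairs of 5 to 24 h, the early mean as labelled differed in 17 genes (0.131%), 13 of them higher early and 4 lower. Without the 0.5 h pair it differed in 53 genes (0.41%), 36 higher and 17 lower. MMP1, a collagenase, had a mean difference of 0.14 early and 1.57 late (difference -1.43 ± 0.24, SE, adjusted p = 0.00591 by limma), and BNIP3, a mitophagy receptor, of -0.21 and 0.40 (-0.61 ± 0.09, SE, adjusted p = 0.00406 by limma). EFHD1 and STS, a steroid sulfatase, stood at 0.17 and 0.52 early and at -0.90 and -0.35 late, with adjusted p of 0.0443 and 0.00406. Among the genes called only without the 0.5 h pair, EGR3 differed by 1.65 early and 0.39 late (adjusted p = 0.0157, limma), EGR4 by 1.37 and -0.01 (adjusted p = 0.0124) and MYC by 1.04 and 0.11 (adjusted p = 0.0125). TP53INP1 differed by -1.31 early and -0.02 late (adjusted p = 0.00289, limma). For HBEGF the means were 1.28 and 0.68 (adjusted p = 0.11) and for CD274 1.55 and 0.91 (adjusted p = 0.315), which were not shown to differ.

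The same comparison in the gefitinib-sensitive parent PC9 called 2 of 14469 genes over 0.5 to 4 h (0.0138%), EGR4 and KLF2, and 0 over 1 to 4 h (1287 at an unadjusted p under 0.05, limma). The difference of the EGF effects, PC9GRM2 minus PC9, was called in 0 of 14469 genes (0%, limma), with 1238 at an unadjusted p under 0.05 as labelled and 1291 without the 0.5 h pair. The PC9 arrays of these times held 925 to 1616 saturated features each, those of PC9GRM2 0, and the lines were scanned on different days. Line can therefore not be told apart from scan day and signal range in the values below. At 1 to 4 h HBEGF had a mean difference of 1.28 in PC9GRM2 and 0.65 in PC9, and the difference between the lines was 0.63 with a 95% interval of 0.30 to 0.95 (adjusted p = 0.543, limma). For BMF the means were -1.84 and -0.84, and the 95% interval of their difference was -1.47 to -0.53 (adjusted p = 0.543). EGR1 had 0.57 against 1.28, with a difference of -0.71 (-1.06 to -0.35, adjusted p = 0.543). AREG and EGR3 had differences between the lines of -0.07 (-0.38 to 0.25) and 0.11 (-0.51 to 0.72). KLF2 had 0.73 in PC9GRM2 and 2.25 in PC9, and the difference of -1.53 (-1.88 to -1.17) had an adjusted p of 0.341 (limma). In PC9, KLF2 stood at 12.92, 13.78, 12.96, 11.69 and 11.44 with EGF from 0.5 to 4 h and at 10.97, 11.03, 10.51, 9.66 and 9.65 without. The list medians at 1 to 4 h were 0.53 in PC9GRM2 and 0.45 in PC9 for immediate-early factors and -0.29 and -0.10 for FOXO targets.

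**Figure D4:**
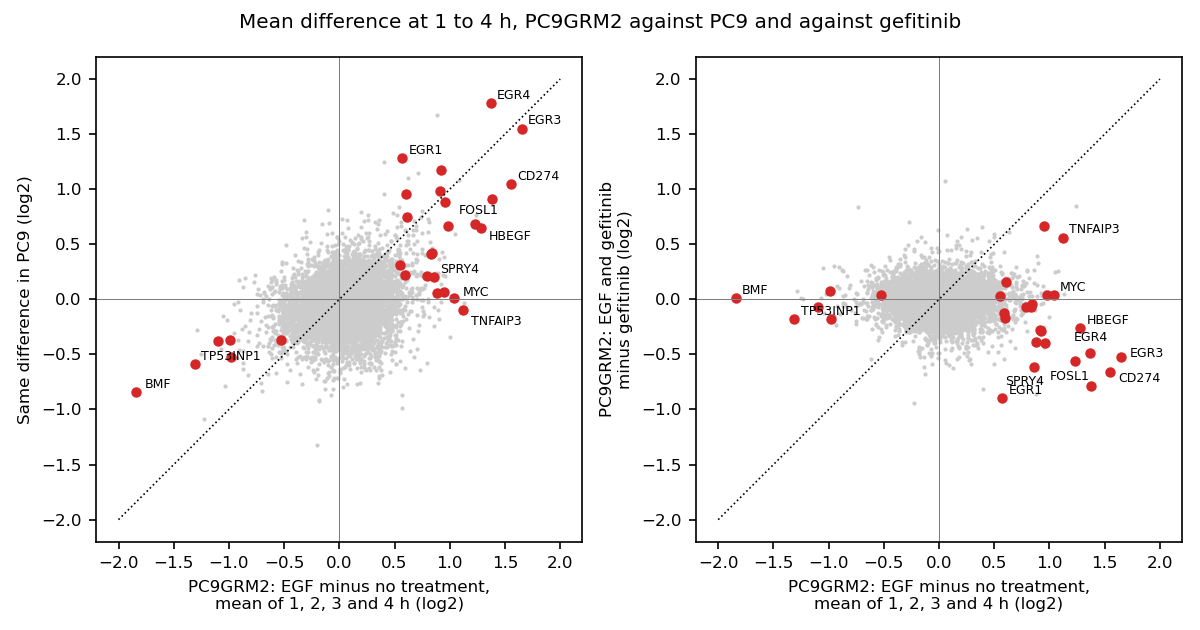
Mean difference at 1 to 4 h in PC9GRM2, EGF minus no treatment (x axis, log2), against the same difference in PC9 (left) and against EGF and gefitinib minus gefitinib in PC9GRM2 (right). Red points are the 29 genes shown by time, grey points the other genes well above background on all 10 arrays, and the dotted line marks equal values; 1 grey gene lies outside the axes. BMF lies at -1.84 in PC9GRM2, -0.84 in PC9 and 0.01 under gefitinib, and HBEGF at 1.28, 0.65 and -0.26.

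In PC9GRM2 cells that received gefitinib, EGF was added on top of the drug at the same times. The difference between the EGF effects without and with gefitinib was called in 0 of 13470 genes (0%, limma), with 503 at an unadjusted p under 0.05 as labelled and 1275 without 0.5 h, where both EGF arrays had gone against their labels. Without 0.5 h HBEGF had a mean difference of -0.26 under gefitinib, and the difference from the 1.28 without the drug was 1.54 (95% interval 1.21 to 1.87, adjusted p = 0.214 by limma). For EGR3 the value under gefitinib was -0.52 and the difference 2.17 (1.75 to 2.59, adjusted p = 0.214), and for CD274 -0.66 and 2.21 (1.65 to 2.76, adjusted p = 0.252). For BMF the value under gefitinib was 0.01 and the difference -1.85 (-2.96 to -0.74, adjusted p = 0.505). BMF stood at 10.64 to 12.40 under gefitinib alone from 0 to 4 h, above all untreated and EGF arrays but the one labelled EGF at 0.5 h. The medians of immediate-early factors, ERBB ligands and FOXO targets under gefitinib were -0.07, -0.07 and 0.01. The comparisons with PC9, with the later course and with gefitinib all use the same early PC9GRM2 arrays and are not independent of one another.

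The promoters of the genes called at 2 to 4 h were searched over 300 bases, from 250 before to 50 after the start, on both strands. The motifs were the CArG box, the AP-1 site TGANTCA, the CRE TGACGTCA, the EGR sites GCGTGGGCG and GCGGGGGCG, the ETS core CCGGAAGT and, added later, the forkhead site TGTTTAC. A promoter was found for 140 of the 161 genes that rose and 81 of the 106 that fell. An EGR site was in 12.9% of the promoters of genes that rose and 11.1% of those that fell, against 9.03% of the tested genes' promoters and 5.7% of all 27305 promoters. The CArG box was in 1.43% and 1.23%, against 1.15% of tested genes and 1.29% of all. The ETS core was in 8.57% and 3.7%, against 8.31% and 4.44%, and the AP-1 site in 4.29% and 6.17%, against 4.76% and 7.76%. The forkhead site was in 2.14% of the promoters of genes that rose and 6.17% of those that fell, against 2.27% of tested genes and 3.41% of all, and the CRE in 2.14% and 0%, against 3.1% and 1.98%. Of the 22 immediate-early genes with a promoter, EGR1 and SRF held a CArG box. Of the FOXO and growth-arrest targets, 4 of 28 held the forkhead site, YPEL3 among them. These shares are descriptions of letters within the windows, with no test.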

How the data were processed

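RNA was labelled with Cy3 and hybridized to Agilent 44K whole human genome arrays, 1 per sample. Per the file headers, the authors deposited intensities in scanner units from Agilent Feature Extraction 10.5.1.1, background-subtracted and not normalized between arrays, and a table that holds the same intensities after quantile normalization over the 208 arrays. Here the intensities were quantile normalized over 45015 features, values under 1 were set to 1, and log2 was taken. Outlier-flagged spots were removed (0.0371% of values on the arrays used here), and for 48 tested genes a fit lacks a pair for this reason. Of 41000 probes, 24794 were matched by RefSeq accession to 16961 genes. The table of names belongs to GRCh38.p14, while the file headers give hg18, so it served for names only. For the 6040 genes with over 1 probe, the one of largest variance stood for the gene, as in the study's methods.

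Paired differences by time were tested with limma 3.58.1 in R 4.3.3 (two-sided). The study's methods also pair time points, but they use t-tests and compare the 2 lines rather than EGF with no treatment. The pairing comes from the time label, and the 2 arrays of a pair lie on 1 slide. Windows were fitted over all 26 pairs. The 5 times were scanned on 3 days, with both arrays of a pair on the same day.

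The members and gene lists were chosen with earlier results of these data known. Genes named are the 12 largest rises and falls alike at 5 of 5 times (all with adjusted p over 0.05), those of the largest differences at each time, in each window and in each comparison that passed the test, members of the lists, and the ERBB genes; not all are printed, and those chosen later are marked. Alternatives were 75th percentile scaling, normexp (offset 50, on median signals), the deposited table, a floor of 16, other probes of a gene, other filters, an intensity trend, a 2-fold minimum, leaving out each pair, the methods' t-test, no pairing, differences against 0 h, and the scan day as a random block. A shared spread over the course, its forms without 0.5 h and without 2 h, and single scan days were added after seeing the data. The scripts were tested on simulated data. The number of arrays limits the precision, and no depth applies to arrays.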

Additional observations from a re-analysis of the deposited data

Results flagged for a closer look

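Of 27 named genes whose 5 paired differences were checked for a single outlying time, 3 had one (gap over range above 0.71). The rate of about 1 in 20 for 5 values drawn alike does not apply here. Most of these genes were chosen by their calls at 2 to 4 h, and the 5 values follow a time course. For HBEGF it was the 0.5 h pair (-1.60, against 1.17 to 1.36 at the other times) and for CD274 the 0.5 h pair (-3.46, against 0.85 to 2.07). For TFDP3 it was the 3 h pair (5.34).

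The mean difference at 0.5 and 1 h as labelled differed from that at 2 to 4 h, by an adjusted test of the difference itself (limma), for 10 named genes. It was lower by the difference of -1.52 for SRF, -1.15 for SPRED2, -1.05 for CCNE1, -3.08 for CD274 and -2.19 for ANGPTL4. It was higher by 1.95 for ELF3, 1.53 for ERBB3, 3.10 for BMF, 1.62 for TP53INP1 and 2.11 for TNFSF10. Each of these values includes the array labelled EGF at 0.5 h, which went against its label. Without that pair none of the 10 was called. The differences, now of 1 h from 2 to 4 h, were then -0.92 for SRF, -0.79 for SPRED2, -0.61 for CCNE1, -0.92 for CD274 and -1.26 for ANGPTL4, and between 0.70 (TP53INP1) and 1.76 (BMF) for ELF3, ERBB3, BMF, TP53INP1 and TNFSF10 (adjusted p 0.382 to 0.936, limma).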

How the results depend on the processing

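The counts of called genes with the deposited table were equal to those reported, as that table holds the same intensities after the same normalization. For 0.5 to 4 h as labelled, 0 genes remained called under scaling, background, probe and filter alternatives, without each pair in turn (range 0 to 0), and within 1 scan day (3 pairs, or 2 without 0.5 h). The methods' t-test called 1 (SLC43A3; 872 at an unadjusted p under 0.05), the differences against 0 h 2 (CCDC102A and ZCCHC4), and, of the forms chosen after seeing the data, the shared spread called 7 with 0.5 h, 258 over 1 to 4 h and 34 without 2 h. Without the replicate block, that is with unpaired arrays, 0 were called in the comparisons of 0.5 to 4 h, of the lines and of gefitinib. For 0.5 and 1 h (16) the counts were 10 with 75th percentile scaling, 4 with normexp, 6 with the probe of highest mean, 5 with the filter on all 5 arrays, 9 at 2-fold and 11 to 218 without single pairs. For 2 to 4 h (267, 60.3% higher) they were 173 with 75th percentile scaling (87 higher and 86 lower), 60 at 2-fold and 13 (without 2 h) to 361 (without 0.5 h, and the same without 1 h) without single pairs, with 139 without 4 h. The probe of highest mean gave 123 higher and 123 lower. For the difference of these windows (91) the counts without single pairs were 14 to 386. For early minus late (17) they were 10 with 75th percentile scaling and with normexp, 7 with the probe of highest mean, 8 with the mean of probes and with no filter, 6 with an intensity trend, 3 at 2-fold (EFHD1, MMP1 and PFKFB3) and 6 to 53 without single pairs. Of 27 named genes under 15 settings, 308 values kept their side of the threshold, 93 lost the call, and 2 turned sign, both of ERBB2, which was never called (-0.03 at 2 to 4 h; -0.33 without the 2 h pair, 0.05 without the 3 h pair and 0.19 without the 4 h pair). Part of the 308 was fixed beforehand. The deposited table repeats the main values, and the fits without 0.5 h and without 1 h keep the 2 to 4 h means and equal one another. EGFR and ERBB2 had no call to lose. The tally therefore does not measure robustness.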
